A study of Macaca mulatta with 6 samples.

Results

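Metallothioneins are small cysteine-rich proteins of the cytosol that bind zinc and copper and buffer the cell's supply of both metals. Their genes lie in a cluster and are switched on by the zinc-sensing transcription factor MTF1 at metal response elements, and several, MT2A above all, are also induced by glucocorticoids, by inflammatory cytokines and by oxidative stress. In the adrenal gland the cortex makes steroid hormones, glucocorticoids among them, and the medulla makes catecholamines. The genes described here are MT1E, MT1F, MT1G, MT1H, MT1M, MT1X and MT2A. They were taken as every probe set whose platform annotation names one of them. This gave 11 of 22283 probe sets, with 2 each for MT1E, MT1F, MT1G and MT1X and 1 each for MT1H, MT1M and MT2A. None of the 11 names several genes, but 9 carry the suffix _x_at, which the manufacturer gives to probe sets whose probes may also bind other transcripts. Because the coding sequences of this family are nearly alike, those 9 may each read more than one metallothionein transcript, and a value below belongs to a probe set rather than to a gene with certainty. The probes were designed on human sequence and the RNA was from rhesus macaque.

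The samples were left adrenal glands from 6 ovariectomized female rhesus macaques kept on 12 h of light and 12 h of dark and fasted for 12 h before necropsy, with necropsy of a single animal every 4 h from 3 AM to 11 PM. The 3 AM and 7 AM animals were both 12 years old. The 11 AM animal was 10 years 37 days old, the 3 PM animal 8 years 106 days, the 7 PM animal 7 years 82 days and the 11 PM animal 8 years 70 days. No clock time had a second animal, so clock time, age and the individual animal cannot be told apart at any single time. All the animals lacked ovaries, and no intact group was part of the arrays used here. The whole gland was used, so fewer cells of a type and less RNA per cell cannot be told apart.

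Intensities were in arbitrary units on a linear scale, already brought to a common level per array, so folds below set arrays of one probe set against each other and never 2 probe sets. The median intensity of an array lay between 154.1 and 173.4. Steroidogenic cortex markers were on the array for 8 of 9 listed genes, with a summed intensity of 55166 to 83025, and chromaffin cell markers for 7 of 8, with 14508 to 37186. Kidney markers, 5 of 6 on the array, summed to 752 to 892. The 3 AM array stood apart for bright probe sets. Over the 322 other probe sets with a mean log2(intensity + 1) of at least 12, its median difference from the probe set's own mean was -0.23 on the log2 scale, and 54.0% of them were lowest there. Hybridisation controls, transcripts added in fixed amounts, also had their lowest geometric mean there, 542, with 669 at 3 PM and 948 to 1101 on the other 4 arrays.

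In the macaque assembly T2T-MMU8v2.0, members entered under their own symbols lie in one row with their relatives. The order is MT4, MT3, MT2A, MT1L, MT1E, MT1M, MT1J and MT1A, with 1 small nuclear RNA gene between MT4 and MT3. MT1X follows after 13 further genes, 10 of them protein-coding, that carry only a locus number there.

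Most metallothionein probe sets were bright. Percentiles rank probe signals, not amounts of RNA. The probe sets of MT2A, MT1H, MT1G (204745_x_at), MT1X (208581_x_at) and MT1F (217165_x_at) had a lowest percentile of 98.9 among all probe sets other than controls, over the 6 arrays. Those of MT1E (216336_x_at and 212859_x_at), MT1F (213629_x_at) and MT1X (204326_x_at) read between percentile 88.9 and 98.2. The remaining 2 were dim. MT1G 210472_at and MT1M 217546_at had mean log2 values of 7.08 and 3.66, below the level filter of 7.30, the median of all probe sets other than controls. So 9 of the 11, for 6 of the 7 genes, passed the filter. These 9 are also the 9 with the suffix _x_at.

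**Figure D1:**
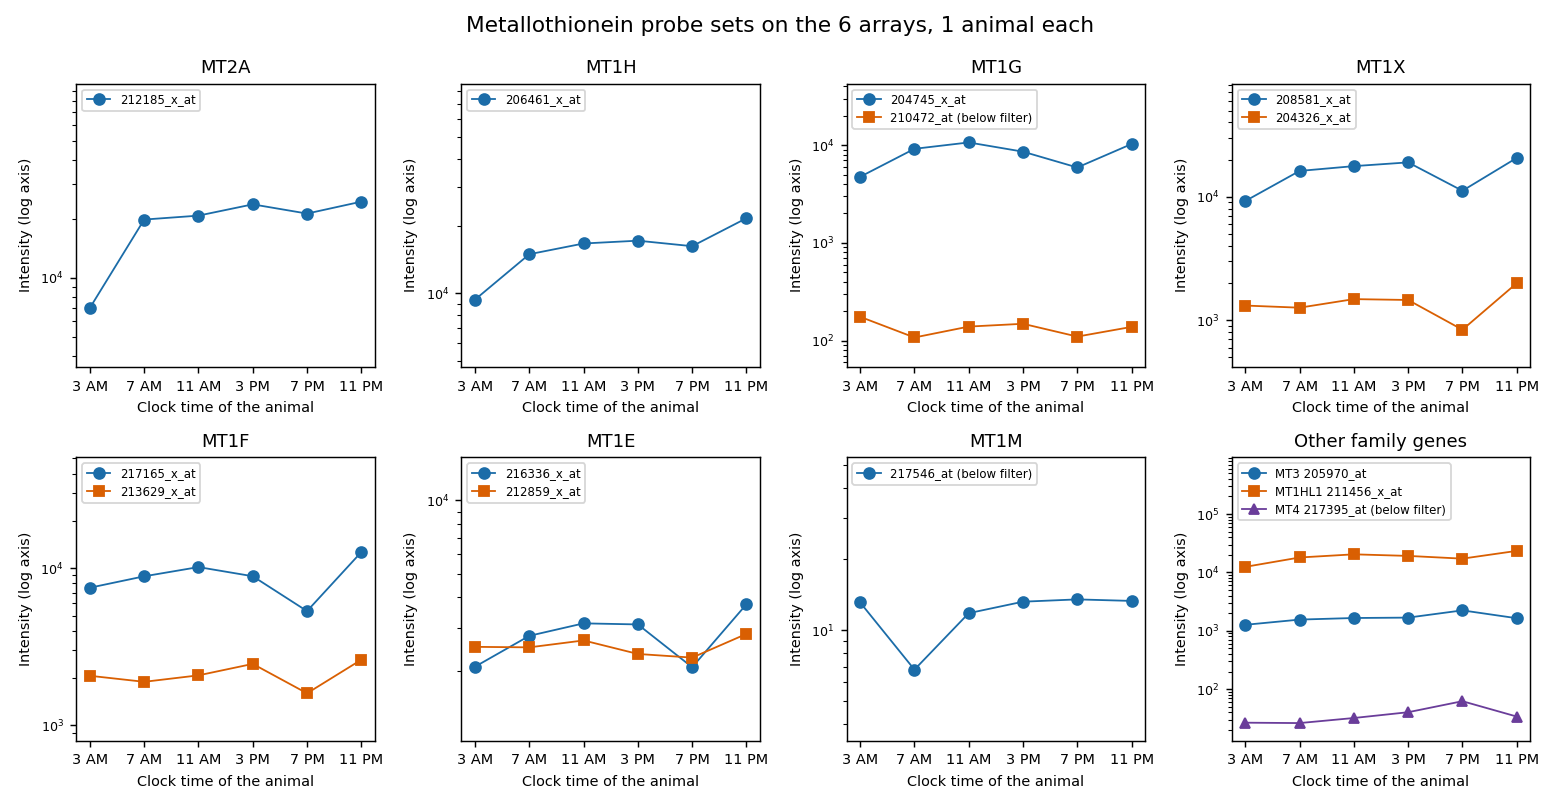
Intensity (arbitrary units, log axis) of every metallothionein probe set against the clock time of the animal, 1 animal per point, with 1 panel per gene and a last panel for family genes outside the 7. Lines only join points of 1 probe set. MT2A is low at 3 AM alone, while both probe sets of MT1E, both of MT1F and MT1X 204326_x_at are lowest at 7 PM.

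MT2A encodes the metallothionein found in nearly every cell type. Its probe set 212185_x_at read 7030.3 at 3 AM, 19838 at 7 AM, 20775 at 11 AM, 23718 at 3 PM, 21281 at 7 PM and 24479 at 11 PM. The 5 later arrays lay within 1.23-fold of one another, and the 3 AM array was 2.82 times below the next lowest. On the log2 scale 3 AM was -1.64 from the mean of the other 5. Of the 11108 probe sets tested, 0.468% had a 3 AM value at or below that mark relative to their other arrays. Among the 322 other bright probe sets it was 1 (0.311%), UBB, which encodes polyubiquitin, at -2.14. Over the 6 animals the r of MT2A with age was -0.65, and the animals at 3 AM and at 7 AM were both 12 years old. Age, clock time and the individual animal cannot be told apart here. Under quantile normalization, which forces the arrays to one distribution, the 3 AM difference of MT2A was -1.32, and 3 AM was still lowest, 2.11 times below the next.

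MT1H, a further cysteine-rich isoform, had the profile nearest to that of MT2A (Pearson r 0.95 over the 6 arrays). Its probe set 206461_x_at read 9381 at 3 AM, 14969 at 7 AM, 16720 at 11 AM, 17210 at 3 PM, 16261 at 7 PM and 21688 at 11 PM. Again 3 AM was lowest, 1.60 times below the next array, and 7 PM did not stand apart, at 0.08 from the mean of the others on the log2 scale. With quantile normalization the step from 3 AM to the next array was 1.15-fold, and the 3 AM difference moved from -0.88 to -0.48.

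MT1G and the brighter probe set of MT1X were low at both 3 AM and 7 PM. MT1G 204745_x_at read 4751 at 3 AM, 9185 at 7 AM, 10674 at 11 AM, 8588 at 3 PM, 5916 at 7 PM and 10287 at 11 PM. MT1X 208581_x_at read 9240.0 at 3 AM, 16197 at 7 AM, 17717 at 11 AM, 18997 at 3 PM, 11188 at 7 PM and 20639 at 11 PM. In both, the 3 AM and 7 PM arrays were the lowest of the 6, by -0.88 and -0.50 for MT1G and -0.84 and -0.51 for MT1X, each on the log2 scale against the mean of the other 5 arrays. With quantile normalization the 3 AM difference of MT1X 208581_x_at was -0.43 and its lowest array was 7 PM, and that of MT1G was -0.67 with 3 AM still lowest.

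MT1F and the dimmer probe set of MT1X were low at 7 PM and high at 11 PM, with 3 AM nearer to the other arrays. MT1F 217165_x_at read 7514 at 3 AM, 8881 at 7 AM, 10165 at 11 AM, 8890.1 at 3 PM, 5336 at 7 PM and 12662 at 11 PM. MT1X 204326_x_at read 1315 at 3 AM, 1263 at 7 AM, 1483 at 11 AM, 1459 at 3 PM, 837 at 7 PM and 1995 at 11 PM. In these 2 probe sets 11 PM was 2.37 and 2.38 times 7 PM, and 7 PM was -0.83 and -0.82 from the mean of the other arrays on the log2 scale. The second MT1F probe set, 213629_x_at, ran from 1602 at 7 PM to 2618 at 11 PM, a 1.63-fold range, with the other 4 arrays between 1895 and 2463.

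The MT1E probe sets differed from each other. MT1E 216336_x_at read 2081 at 3 AM, 2784 at 7 AM, 3132 at 11 AM, 3100.3 at 3 PM, 2070.2 at 7 PM and 3752 at 11 PM, so 3 AM and 7 PM were equally low. MT1E 212859_x_at stayed between 2267 at 7 PM and 2835 at 11 PM, a 1.25-fold range, the smallest among the 9. Both annotations name MT1E alone, and which macaque transcripts each of them binds was not tested.

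The dim pair was lowest at 7 AM and not highest at 11 PM. MT1G 210472_at lay between 107.6 at 7 AM and 175.2 at 3 AM, with 109.9 at 7 PM. Its r with the bright MT1G probe set was -0.28. With the brighter metallothionein probe sets as a whole, r ran from -0.60 (MT2A) to 0.58 (MT1F 213629_x_at). MT1M 217546_at lay between 6.8 at 7 AM and 13.5 at 7 PM, between percentile 3.10 and 7.71 of all probe sets other than controls. No detection calls were used here, so whether these readings are above background is not known.

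**Figure D2:**
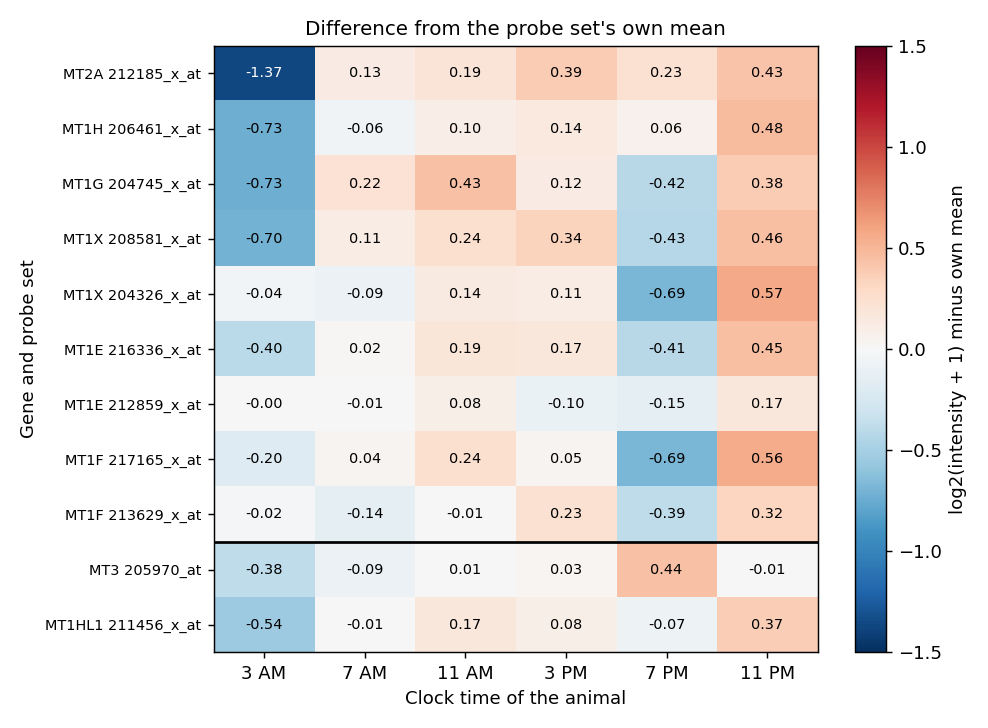
Difference of each array from the probe set's own mean, in log2(intensity + 1), for the 9 metallothionein probe sets past the level filter (above the line) and for MT3 and MT1HL1 (below it); columns are the 6 arrays. MT2A is -1.37 at 3 AM, MT1F 217165_x_at and MT1X 204326_x_at are both -0.69 at 7 PM, and all 9 are above their own mean at 11 PM.

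Across the 9 probe sets, the 11 PM array was the highest in 8, against 14.9% of all probe sets tested and 21.4% of the other bright ones, the exception being MT1G 204745_x_at, highest at 11 AM. The lowest array was 7 PM in 5 and 3 AM in 4, against 15.6% and 17.4% of all probe sets tested, and 11.5% and 54.0% of the other bright ones. The 11 PM array was above 7 PM in all 9, against 47.4% of all probe sets tested and 57.1% of the other bright ones. It was above the probe set's own mean in all 9, against 49.5% and 65.2%. The 11 PM array was at least 1.5 times the 7 PM array in 6 of the 9, for MT1E, MT1F, MT1G and MT1X, against 9.12% of all probe sets tested and 4.66% of the other bright ones. These rules were chosen after the values were seen, the probe sets can share transcripts, and each array is 1 animal, so the counts describe these 6 glands. With quantile normalization 11 PM was the highest in 5 of the 9, against 15.1% of all probe sets tested, and at least 1.5 times 7 PM in 6, against 9.69%.

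The spread over arrays was wider than for most bright probe sets. The highest array was at least 2 times the lowest in 6 of the 9, against 29.4% of all probe sets tested and 11.2% of the other bright ones, and in 3 of the 9 with quantile normalization, against 28.5% and 7.76%. The median range was 2.25-fold, against 1.71-fold over all probe sets tested. The widest was MT2A, 3.48-fold, and without its lowest array the MT2A range was 1.23-fold.

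**Figure D3:**
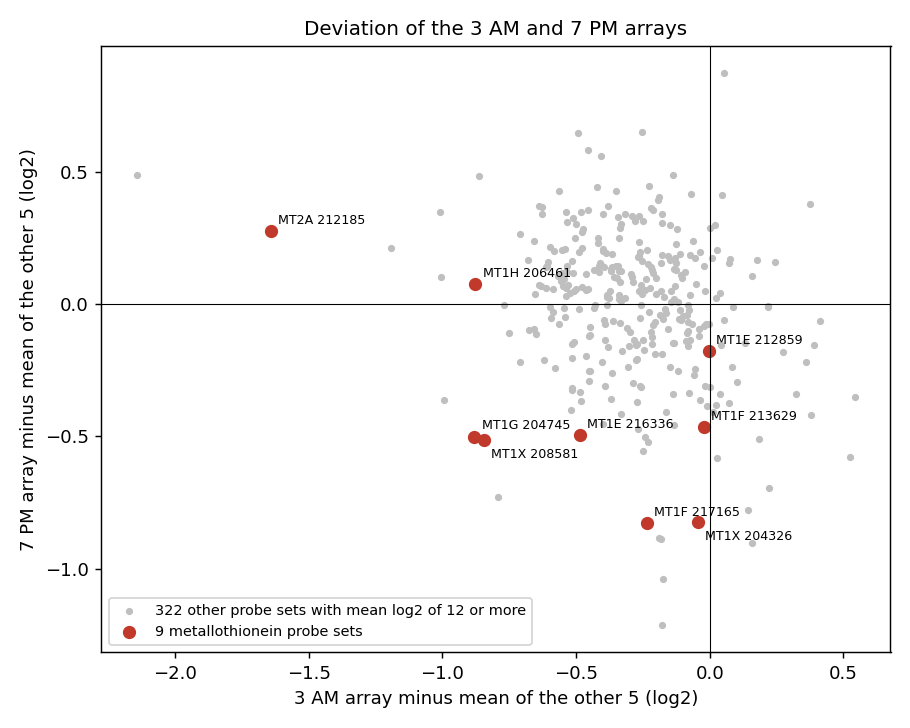
Log2 difference of the 3 AM array (horizontal) and of the 7 PM array (vertical) from the mean of the other 5 arrays, for the 9 metallothionein probe sets (red) and the 322 other probe sets with a mean log2 of at least 12 (grey). MT2A lies far to the left at -1.64 and 0.28, MT1F 217165_x_at and MT1X 204326_x_at lie low at -0.83 and -0.82 on the vertical axis, and most grey points lie left of 0.

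The 9 profiles resembled one another to unequal degrees. Over the 36 pairs, Pearson r across the 6 arrays ran from 0.05, between MT2A and MT1E 212859_x_at, to 0.97, between MT1F 217165_x_at and MT1X 204326_x_at, with a median of 0.77, and 7 pairs were above 0.9. Among pairs of the other bright probe sets the median was 0.38. Probe sets of one gene were not the most alike: r was 0.84 for MT1F, 0.68 for MT1X and 0.68 for MT1E. The brighter MT1X probe set was closer to MT1E 216336_x_at (0.96) and MT1G 204745_x_at (0.95), and the dimmer one to MT1F 217165_x_at. The points share their 6 animals and, through near-identical sequences, possibly their transcripts.

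**Figure D4:**
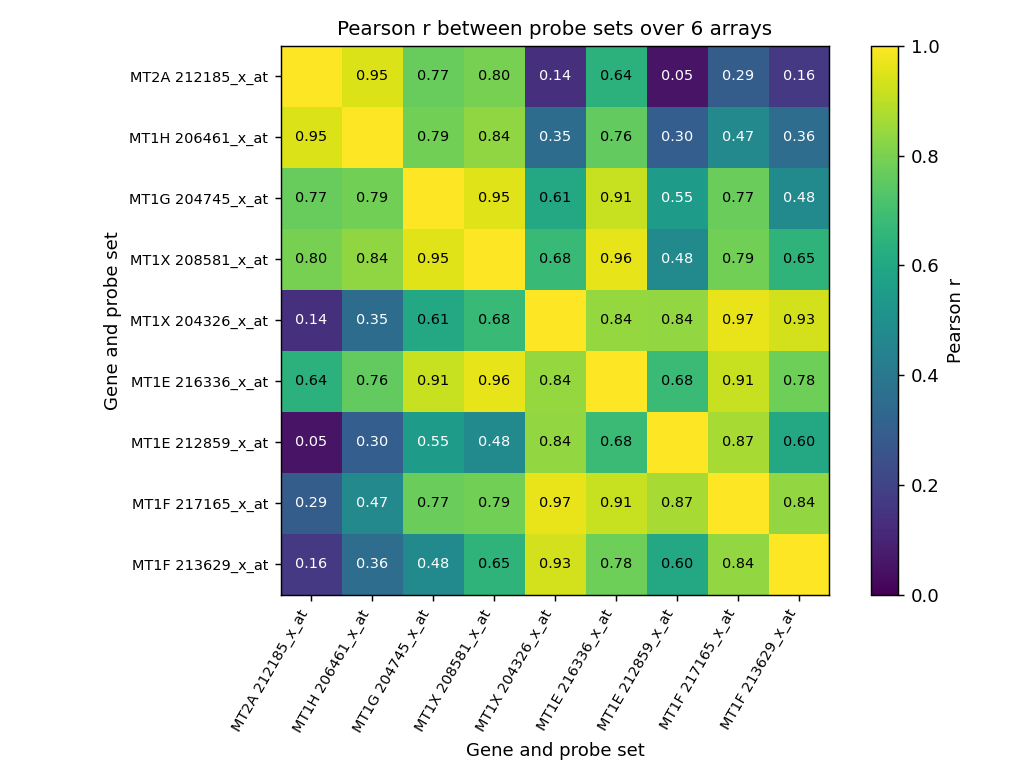
Pearson r between each pair of the 9 metallothionein probe sets past the level filter over the 6 arrays, on log2(intensity + 1). MT2A and MT1H pair at 0.95 at the top left, MT1X 204326_x_at pairs with MT1F 217165_x_at at 0.97, and MT2A is at 0.05 with MT1E 212859_x_at.

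Relatives outside the 7 were read on 4 probe sets. MT1HL1, a gene much like MT1H, was read by 211456_x_at, with 12449 at 3 AM, 18011 at 7 AM, 20402 at 11 AM, 19170 at 3 PM, 17208 at 7 PM and 23374 at 11 PM, and its r with the MT1H probe set was 0.97. MT3, the growth inhibitory form known from neurons, ran another way. Its probe set 205970_at, without the _x_at suffix, read 1265 at 3 AM, 1554 at 7 AM, 1654 at 11 AM, 1680 at 3 PM, 2236 at 7 PM and 1640 at 11 PM. So MT3 was highest at 7 PM, where both MT1E probe sets, both MT1F probe sets and MT1X 204326_x_at were lowest. The r of MT3 with the 9 probe sets ran from -0.52 with MT1X 204326_x_at to 0.69 with MT2A. MT4, the form of stratified epithelium, lay below the level filter, between 26.2 and 62.1, and so did TESMIN, a metallothionein-like gene of the testis.

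The series asked whether transcripts follow a daily rhythm in the gland. A cosine with a period of 24 h was fitted to all 11108 probe sets past the filter with limma, which moderates the error across probe sets. None of the 9 metallothionein probe sets had an unadjusted p under 0.05, against 5.44% of all probe sets tested (604). The smallest was that of MT2A, whose fitted peak at 15.7 h was 2.21 times its trough (log2 1.14 ± 0.55, SE, limma's moderated F test, adjusted p = 0.873). The others had peak-to-trough differences from 0.06 to 0.57 on the log2 scale, with standard errors from 0.27 to 0.47 and adjusted p values by limma from 0.910 to 0.996. Their median fold was 1.24 with MT2A included, against 1.36 over all probe sets tested. By limma 0 of 11108 probe sets passed an adjusted p of 0.05. Without the 3 AM array the difference of MT2A was 0.20.

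The curve left most of the variation of these probe sets unfitted. Its R2 was 0.42 for MT2A, 0.31 for MT1H and 0.20 for MT1G 204745_x_at, and 0.01 to 0.22 for the other 6. In MT1E 216336_x_at, MT1G 204745_x_at and MT1X 208581_x_at the 11 PM array was high between low 7 PM and 3 AM arrays, a shape with more than 1 turn in 24 h. Without the 11 PM array 3 probe sets had an unadjusted p under 0.05 by limma, against 5.21% of all probe sets tested: MT1G 204745_x_at (log2 1.40 ± 0.39), MT1X 208581_x_at (1.27 ± 0.39) and MT2A (1.63 ± 0.50), with peaks between 11.3 h and 13.7 h and an adjusted p of 0.938 for each. With age as a covariate 2 had one, against 5.74% of all probe sets tested. These were MT1G 204745_x_at and MT2A, but their fitted log2 differences of 4.28 and 4.16 exceeded the observed ranges of 1.17 and 1.80.

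An exact permutation test compared R2 of the curve over the 60 ways of placing the 6 arrays around the clock, for each probe set. Its p ran from 0.317 for MT2A to 0.967 among the 9. Below the filter it was 0.90 for MT1G 210472_at and 0.0167 for MT1M 217546_at, the smallest value that 60 orders can give, at intensities of 6.8 to 13.5. The test was run on 11 member probe sets and on 130 of relatives and listed genes, of which 2, MT4 217395_at and LCN2, both below the filter, reached the same value.

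**Figure D5:**
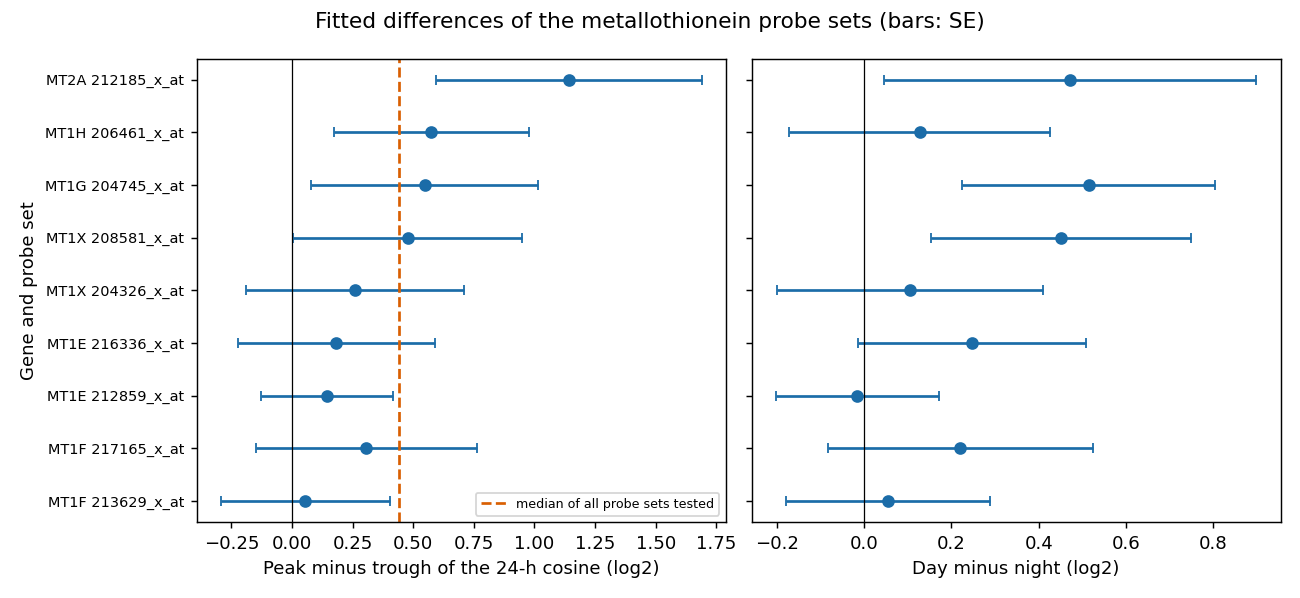
Fitted differences of the 9 metallothionein probe sets on the log2 scale with standard errors of the fit (bars): peak minus trough of the 24-h cosine on the left, with the median of all probe sets tested as a dashed line (0.44), and day minus night on the right. A peak-to-trough difference is never below 0; the MT2A point lies at 1.14 and the day differences lie between -0.02 and 0.51.

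The daytime arrays (7 AM, 11 AM and 3 PM) were set against the night arrays (7 PM, 11 PM and 3 AM). The hour of lights-on was not given, so this split is by clock hour and may not match light and dark. Of the 9 metallothionein probe sets, 8 were higher by day, against 49.6% of all probe sets tested and 70.2% of the other bright ones. None had an unadjusted p under 0.05 by limma. The largest difference was that of MT1G 204745_x_at, with log2 means of 13.21 by day and 12.69 by night (0.51 ± 0.29, SE, limma, adjusted p = 0.919). MT2A differed by 0.47 ± 0.43 and MT1X 208581_x_at by 0.45 ± 0.30. MT1E 212859_x_at differed by -0.02 ± 0.19. Of all probe sets tested, 2.93% were higher and 2.59% lower by day at an unadjusted p under 0.05, 5.53% in all (614), and 0 of 11108 passed adjustment by limma. With 3 arrays against 3 there are 10 possible splits, and the smallest exact p is 0.1. Markers of chromaffin cells, the cells of the medulla, differed between the same arrays: all 7 tested were higher by day, 4 of them at an unadjusted p under 0.05 by limma (none after adjustment), with a median of 0.92 on the log2 scale. All 8 cortex markers tested were lower by day, with a median of -0.23. The part of either tissue in the metallothionein differences was not tested.

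Single arrays decided these differences. Without 3 AM the difference of MT2A was -0.09 and that of MT1H -0.21, and without 7 PM MT1F 217165_x_at and MT1X 204326_x_at differed by -0.07 and -0.21. Without 11 PM 3 probe sets had an unadjusted p under 0.05 by limma, against 4.90% of all probe sets tested. These were MT1E 216336_x_at (0.53 ± 0.21), MT1G 204745_x_at (0.83 ± 0.23) and MT1X 208581_x_at (0.79 ± 0.23), with adjusted p values of 0.947 to 0.954.

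Genes that move or sense metal were read beside the metallothioneins, each by its brightest probe set naming that gene alone. Of 15 listed zinc genes 10 were tested, and 1 had an unadjusted p under 0.05 in the cosine fit, SLC39A14, an importer of zinc and iron induced in inflammation (peak at 5.45 h, 1.94 times its trough, limma, adjusted p = 0.866). SLC39A8, another importer of this family, read 696 at 11 PM and 312 to 452 on the other arrays (limma, adjusted p = 0.866). MTF1, the zinc sensor that activates metallothionein genes, lay between 391 and 534, and SLC30A1, the zinc exporter that is also an MTF1 target, between 1049 and 1606. Neither was lowest at 3 AM or at 7 PM. Of the zinc genes tested, only SLC39A14 (316) and SLC39A4 (58.0) were lowest at 7 PM, the lowest array in 15.6% of all probe sets tested. MTF1 and SLC30A1 were named for their role and not by size of change, and SLC39A4 after its values were seen. By day 6 of the 10 were higher and 4 lower, none at an unadjusted p under 0.05 by limma.

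Copper genes were tested for 6 of 11 listed. ATOX1, the chaperone that hands copper to the export pumps, had the smallest p (peak at 17.4 h, 2.29 times its trough, limma, adjusted p = 0.866) and was the 1 with an unadjusted p under 0.05, with 657 at 3 PM and 268 at 3 AM. ATP7A, one of those pumps, was between 279 at 7 AM and 474 at 11 AM (limma, adjusted p = 0.866). Of 15 listed genes of the oxidant and metal response 12 were tested and 0 had an unadjusted p under 0.05 in the cosine fit by limma. The smallest p values were those of GSR, glutathione reductase, from 52.1 at 3 AM to 296 at 11 AM and TXN, thioredoxin, from 703 at 7 PM to 1845 at 7 AM (limma, adjusted p = 0.866 for both). TXN was also the 1 of the 12 with an unadjusted p under 0.05 in the day contrast (0.68 ± 0.29, higher by day).

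Glucocorticoid-responsive genes were tested for 9 of 14 listed, and 2 had an unadjusted p under 0.05 by limma, NFKBIA, the inhibitor of NF-kappa-B, and GLUL, glutamine synthetase (adjusted p = 0.866 for both). NFKBIA was lowest at 3 PM (1202) and highest at 7 AM (3602), and GLUL was lowest at 3 PM (822). Of the 9 tested, 5 were lowest at 7 PM, against 15.6% of all probe sets tested and 11.5% of the other bright ones. These were ZBTB16, SGK1, DUSP1, TSC22D3 and KLF9, named after their values were seen. Their r with the metallothionein mean ran from 0.10 (KLF9, highest at 3 AM) to 0.68 (DUSP1). They were picked by an array on which several metallothionein probe sets were also lowest, so these r values are not separate evidence. Of the rest, 2 were lowest at 3 PM, 1 at 7 AM and 1 at 11 PM. Their r with the metallothionein mean ran from -0.05 (GLUL) to 0.23 (NFKBIA). NR3C1, the glucocorticoid receptor, ran from 475 at 11 PM to 733 at 11 AM. In the day contrast 1 of the 9 had an unadjusted p under 0.05, SGK1, a kinase that glucocorticoids induce (0.63 ± 0.27, higher by day). Of the interleukin-6 and acute phase list 9 of 14 were tested, and 1 had an unadjusted p under 0.05 by limma, IL1R1, an interleukin-1 receptor, which read 197 at 7 AM and 451 at 11 PM. LCN2, an acute phase protein that binds siderophores, and NNMT, a methyltransferase, lay below the level filter. LCN2 read 17.4 at 11 AM and 389 at 11 PM, and NNMT read between 8.8 and 65.0. None of these 5 lists had a probe set with an adjusted p under 0.05 by limma, where 5.44% of all probe sets tested had an unadjusted p under 0.05.

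Probe sets with a profile like the family mean were taken by Pearson r with the mean standardized profile of the 9. The highest among 9819 single-gene probe sets outside the family belonged to MAP3K3, a kinase of stress pathways (0.99), IGFBP3, a binding protein of insulin-like growth factors (0.99), FKBP6, PAM, an enzyme that amidates peptides, TNNI3 and TRIM25, a ubiquitin ligase (each 0.97). PAM had a range of 1.25-fold only. IGFBP3 read 205 at 3 AM, 291 at 7 AM, 401 at 11 AM, 335 at 3 PM, 221 at 7 PM and 502 at 11 PM. The most opposite were GNRHR, CAMKK2 and TEX261 (each -0.99). Of the 9819 probe sets, 40 (0.407%) were above 0.9 and 62 (0.631%) below -0.9.

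Marker genes of other cells also differed between the arrays on which the metallothioneins differed. All 5 listed smooth muscle markers were on the array, and their summed intensity was 5785 at 3 AM and 7448 at 7 PM, against 2759 at 11 PM and 3538 to 4923 on the other 3 arrays. None was listed at 0, and the lowest reading was CNN1 at 20.4 at 11 PM. The r of their mean with the metallothionein mean was -0.87. All 6 liver markers were on the array, 4 of them past the level filter, and summed to 2748 at 3 AM against 784 to 1317 on the others. Of the 6, 5 were highest at 3 AM, against 17.8% of all probe sets tested. ALB was among them (240 at 3 AM, 20.8 to 88.4 elsewhere). Adipocyte markers, 6 of 6 on the array and 3 past the level filter, also had their highest sum at 3 AM. It was 4166, with 3709 at 11 PM and a lowest sum of 1588 at 7 AM. The sum of chromaffin cell markers was lowest at 3 AM. Over the 12 marker lists r with the metallothionein mean ran from -0.87 to 0.73, the latter for macrophages, whose sum was 885 at 7 PM and 1407 at 11 PM. The part of these cells in the metallothionein values was not tested.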

How the data were processed

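Each probe set has 1 deposited intensity on each array, from 0.1 to 40394 on a linear scale. The trimmed mean of each array is nearly equal (325.04 to 325.09), so the authors' values had been scaled. How the authors summarised probes was not stated in the labels used here. Gene names come from the platform annotation, in which 19065 probe sets name 1 gene. Values were taken as log2(intensity + 1). The 68 controls were left out, and a probe set entered the tests if its mean reached the median of the rest, 11108 of 22215. limma 3.58.1 in R 4.3.3 fitted a cosine of 24 h (moderated F test, 3 residual degrees of freedom) and a contrast of 3 day against 3 night arrays, with Benjamini-Hochberg adjustment over all probe sets tested. The fits were tested on simulated data. The members, lists and tests were chosen with earlier results of these data known. Named genes are every member, the 2 of each list with the smallest p, and the 6 most like and 3 most opposite profiles. Outside this rule MTF1, SLC30A1 and NR3C1 were named for their role, and UBB, PER2, IL1R1, SGK1, JUNB, relatives, markers and the genes so described after their values were seen. Fits per probe set replaced the gene as unit so that every member is shown. The number of arrays limits the precision. Samples within the day and the night group are different animals of different clock times, so their spread is not that of replicates. Alternatives covered the filter, scaling, pseudocount, prior, age, single arrays and the split of the day.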

Additional observations from a re-analysis of the deposited data

How the results depend on the processing

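No metallothionein probe set passed adjustment over all probe sets in any setting run. The number with an unadjusted p under 0.05 was 0 in the cosine fit, except 2 with age as a covariate and 0 to 3 without 1 array (3 without 11 PM). In the day contrast it was 0, except 1 with age (MT2A) and 0 to 3 without 1 array (3 without 11 PM). Probe sets past the unadjusted threshold were 1141 with no filter, 347 with the stricter filter and 398 with 1 probe set per gene in the cosine fit, and 1117, 376 and 386 in the day contrast, where other numbers were tested. The stricter filter gave 1 past adjustment, PER2. Quantile normalization, added for the counts by array after the data had been seen, gave 5 with 11 PM highest.

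With age as a covariate fitted peaks moved by over 6 h, with log2 peak-to-trough differences of 2.73 (MT1E 216336_x_at), 0.66 (MT1F 213629_x_at), 2.89 (MT1H), 3.43 (MT1X 208581_x_at) and 4.16 (MT2A). Leaving out 1 array also moved peaks by over 6 h, with differences of 0.088 to 0.87 (MT1E 216336_x_at), 0.31 to 0.98 (MT1F 217165_x_at), 0.080 to 0.57 (MT1F 213629_x_at), 0.27 to 1.27 (MT1X 208581_x_at) and 0.35 to 0.74 (MT1X 204326_x_at). Day differences turned sign for MT1H with quantile normalization (-0.035), and with the day taken as 11 AM to 7 PM for MT1E 216336_x_at (-0.037), MT1F 217165_x_at (-0.27), MT1F 213629_x_at (-0.11) and MT1X 204326_x_at (-0.29). Without single arrays they ran from -0.094 to 0.068 (MT1E 212859_x_at), -0.070 to 0.55 (MT1F 217165_x_at), -0.13 to 0.23 (MT1F 213629_x_at), -0.21 to 0.40 (MT1H), -0.21 to 0.41 (MT1X 204326_x_at) and -0.094 to 0.81 (MT2A). The cause was not tested, apart from the numbers of probe sets and arrays. No paired analysis was possible because every group holds 1 animal. The dim probe sets of MT1G and MT1M are limited by a background level that was not used here.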

Other observations

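JUNB, an AP-1 subunit that acute stimuli induce, had a profile near that of the metallothioneins, with an r of 0.89 with their mean. It read 1338 at 3 AM, 2202 at 7 AM, 2404 at 11 AM, 2008 at 3 PM, 759 at 7 PM and 2802 at 11 PM. Its lowest arrays, 7 PM and 3 AM, were also those of MT1E 216336_x_at, MT1F 217165_x_at, MT1G 204745_x_at and MT1X 208581_x_at. MT2A and MT1H, by contrast, were lowest at 3 AM and not low at 7 PM. The highest array of JUNB was 11 PM. JUNB was singled out from the interleukin-6 and acute phase list after its values were seen. It did not pass the cosine fit (limma, adjusted p = 0.925). Not every gene of that list had such a profile: r with the metallothionein mean was 0.21 for IL6ST and -0.15 for SERPINA3.

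LCN2, of the interleukin-6 and acute phase list, lay below the level filter and read 122 at 3 AM, 31.1 at 7 AM, 17.4 at 11 AM, 42.5 at 3 PM, 228 at 7 PM and 389 at 11 PM, with a fitted peak at 22.3 h. No fold is given, because its low readings were not shown to be above background. Its r with the metallothionein mean was -0.09.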
